A study of Rattus norvegicus with 12 samples.

Results

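The vessel wall of the brain was described here through 36 genes of endothelium, blood-brain barrier, pericytes and smooth muscle, out of 26949 genes in a hippocampal RNA table. The members were taken by gene symbol from a list of vessel genes. They fall into 7 classes: 5 junction and adhesion genes, 7 endothelial surface receptors, 6 barrier transporters, 4 endothelial transcription factors, 5 other endothelial products, 6 pericyte genes and 3 smooth muscle genes. All 36 were measured well enough to be tested.

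The tissue was hippocampus from male rats. The CIH group was exposed to chronic intermittent hypoxia, repeated cycles of low oxygen that model the blood gases of sleep apnoea, for 4 weeks, and the control group was kept in normoxia for 4 weeks. Each group had 3 RNA libraries and 3 small RNA libraries, made from total RNA. Strain, age, the hypoxia cycle and whether libraries came from separate animals are not stated in the labels, so p-values reflect only library-to-library spread, which may be technical. An RNA library is not stated to share an animal with the small RNA library of the same number. Values are given in the order of replicates 1, 2 and 3 of each group. CPM is the estimated read count after scaling to the TMM-adjusted library total. TPM, which also allows for transcript length, is used where genes are compared with each other. Fold changes are CIH relative to control on the log2 scale, from edgeR's quasi-likelihood fit to all 17935 tested genes, and each is followed where useful by the same value without CIH replicate 1. In parentheses such a pair is written as the fold change and its SE with all libraries, then both without that library.

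In brain capillaries, endothelial cells are sealed by tight junctions, carry few vesicles and rely on transporters to move nutrients in and drugs out. Pericytes sit on the capillary wall and sustain this barrier, while smooth muscle cells wrap arterioles and set their diameter. The transcription factors ERG, SOX17 and SOX18 maintain endothelial identity. Several microRNAs (miRNAs) are tied to the same cells. miR-126 is carried by an intron of Egfl7 and is endothelial, and miR-143 and miR-145 share a smooth muscle host transcript.

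The mature miRNAs whose values are set beside the vessel genes are shown because a smooth muscle miRNA and a smooth muscle mRNA can be followed in separate libraries. Sequences are from RefSeq (GRCr8), 5′ to 3′, with the seed (bases 2 to 8) in capitals. In GRCr8, miR-126a-3p lies at chr3:29813219-29813240 on the plus strand and miR-126a-5p at chr3:29813182-29813202 on the same strand, within Egfl7 by position. miR-143-3p lies at chr18:57371373-57371394 and miR-145-5p at chr18:57370033-57370055, both on the minus strand. The seeds of these 4 differ from each other, and they were not compared with those of all rat miRNAs.
miR-126a-3p: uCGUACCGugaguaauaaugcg
miR-126a-5p: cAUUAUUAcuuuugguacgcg
miR-143-3p: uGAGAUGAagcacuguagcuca
miR-145-5p: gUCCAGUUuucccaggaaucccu

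The promoters of Robo4 and Erg are shown because these were the members with an ETS match in the promoter whose CIH libraries all stood above every control in CPM and in TPM. They were chosen after their values were seen. Each run covers 250 bases before to 50 after the annotated start, from RefSeq (GRCr8). Robo4 lies on the plus strand at chr8:45308489-45308788 and was matched by symbol, and Erg lies on the minus strand at chr11:48251517-48251816. Capitals mark matches on either strand to 4 short motifs, none of which contains another. The letters CAGGAAG stand for a site of the ETS family, to which ERG itself belongs. ACAATG stands for a site of the SOX factors, AGATAA for one of the zinc finger factors of the GATA family, and ACGTG for the core of a hypoxia response element.
Robo4: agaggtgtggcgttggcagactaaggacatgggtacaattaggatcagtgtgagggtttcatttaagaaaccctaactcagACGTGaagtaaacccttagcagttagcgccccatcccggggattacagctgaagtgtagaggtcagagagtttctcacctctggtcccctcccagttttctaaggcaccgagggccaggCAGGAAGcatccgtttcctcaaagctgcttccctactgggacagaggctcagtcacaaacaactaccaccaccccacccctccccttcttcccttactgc
Erg: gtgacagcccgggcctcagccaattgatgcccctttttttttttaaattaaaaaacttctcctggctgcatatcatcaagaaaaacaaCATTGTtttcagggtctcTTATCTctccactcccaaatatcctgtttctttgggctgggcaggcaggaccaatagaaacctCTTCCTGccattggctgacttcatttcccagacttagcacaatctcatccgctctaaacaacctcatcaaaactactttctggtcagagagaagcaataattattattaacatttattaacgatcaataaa

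In Robo4 the ETS match spanned bases -50 to -44 and the hypoxia-type match bases -169 to -165, counted from the start. Erg held an ETS match at bases -81 to -75, a SOX match at bases -162 to -157 and a GATA match at bases -144 to -139, and no ACGTG in this window. Among the 22 members with 1 promoter in the table, 4 held the ETS letters (Emcn, Robo4, Abcg2 and Erg), or 18.2% against 12.5% of all 33469 promoters of this length. The hypoxia letters were in 4 of 22 (Robo4, Slco1a4, Slc7a5 and Notch3), or 18.2% against 19.3% of all promoters. SOX letters were in 2 of 22 (9.09% against 13.2%), GATA letters in 1 of 22 (4.55% against 11.6%), and the CArG box of smooth muscle genes in 0 of 22 (against 1.64%). A match is a run of letters and not a measured binding site.

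RNA totals ran from 17170943 estimated counts in CIH replicate 1 to 21941173 in CIH replicate 2, and every pair of RNA libraries differed by more than sampling noise. CIH replicate 1 stood apart in its tissue markers. Markers of dentate granule cells, neurons of the hippocampus itself, summed to 61.0, 144 and 266 TPM in CIH libraries, against 337, 141 and 194 TPM in control libraries, and all 6 tested were lowest in CIH replicate 1 (Tdo2 and Lct were at 0 in some library). Cortical neuron markers summed to 359, 198 and 234 TPM in CIH and 228, 243 and 216 TPM in control, and meningeal and fibroblast markers to 146, 38.3 and 64.5 TPM in CIH and 99.4, 92.1 and 76.5 TPM in control. These 2 lists were split. Only 4 of 8 cortical markers tested and 6 of 11 meningeal and fibroblast markers were highest in CIH replicate 1. Fold changes of the members are therefore given with and without CIH replicate 1. In bulk tissue, fewer cells of a type and less RNA per cell cannot be told apart.

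No vessel gene passed the test for a difference between CIH and control after correction over all genes. With edgeR, 0 of 36 members passed an adjusted p of 0.05, the same as the 0% of all 17935 genes tested, and the adjusted p was 1.00 for each member. At an unadjusted p under 0.05 there were 3 members higher in CIH (Robo4, Slco1a4 and Erg), where 0.914% of all genes were, and 1 lower (Foxq1), where 0.864% of all genes were. The fold change was positive for 25 members and negative for 11, against 50.6% of all genes positive. The median log2 fold change was 0.18 over the 36 members, against 0.0028 over all genes.

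The excess of positive fold changes rested on 1 library. CIH replicate 1 was the highest of the 6 libraries for 24 of 36 members, against 25.7% of all genes. Without it, 15 members had a positive and 21 a negative fold change, against 48.4% of all genes positive, and the median was -0.05, against -0.00715 over all genes. Again 0 members passed the adjusted threshold, the same as the 0% of 18251 genes tested. In the same edgeR fit the unadjusted p of Robo4 was 0.0407, that of Slco1a4 0.0660, that of Erg 0.0751 and that of Foxq1 0.0916. The summed level of the 27 endothelial members was 640, 552 and 471 TPM in CIH, against 467, 573 and 545 TPM in control, and that of the 9 mural members was 425, 253 and 241 TPM in CIH, against 266, 256 and 271 TPM in control. In both sums CIH replicate 1 was the highest library. CIH replicates 2 and 3 lay within the control range of the endothelial sum and just below that of the mural sum.

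**Figure D1:**
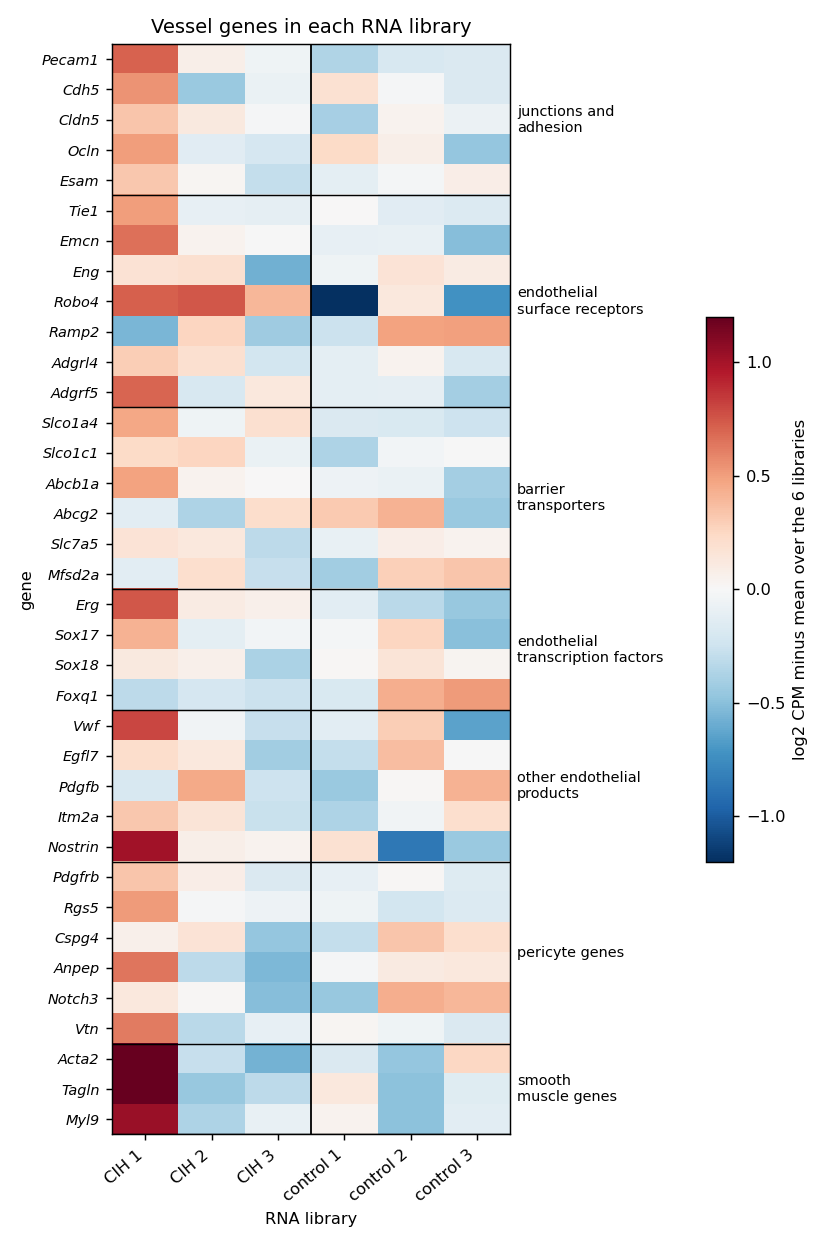
Log2 CPM of each of the 36 vessel genes minus its mean over the 6 RNA libraries, one row per gene grouped by class, with CIH libraries left of control libraries. Red is above and blue below the gene's mean, and values past the ends of the scale take the end colour. The column of CIH replicate 1 is red for most rows, most deeply for Acta2, Tagln and Myl9. Ramp2 and Foxq1 are blue in it, and Pdgfb, Mfsd2a and Abcg2 more faintly so.

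A score for each class, the mean log2 CPM of its members minus their mean over the 6 libraries, showed how far each class followed that library. The 3 smooth muscle genes had scores of 1.18, -0.36 and -0.32 in CIH, against -0.01, -0.48 and -0.01 in control. Junction genes had 0.48, -0.07 and -0.13 in CIH, against -0.09, -0.02 and -0.16 in control. Barrier transporters had 0.18, 0.04 and -0.04 in CIH, against -0.13, 0.08 and -0.12 in control. CIH replicate 1 was highest in all 7 classes, furthest for smooth muscle and least for the transporters. In no class were the other 2 CIH libraries both above, or both below, every control. For other endothelial products, replicate 2 was above and replicate 3 below every control. Surface receptors scored 0.35, 0.16 and -0.12 in CIH and -0.26, 0.07 and -0.19 in control, and transcription factors 0.24, -0.04 and -0.15 in CIH and -0.08, 0.13 and -0.10 in control. Other endothelial products scored 0.42, 0.15 and -0.23 in CIH and -0.21, -0.04 and -0.09 in control, and pericyte genes 0.38, -0.06 and -0.30 in CIH and -0.15, 0.10 and 0.04 in control.

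**Figure D2:**
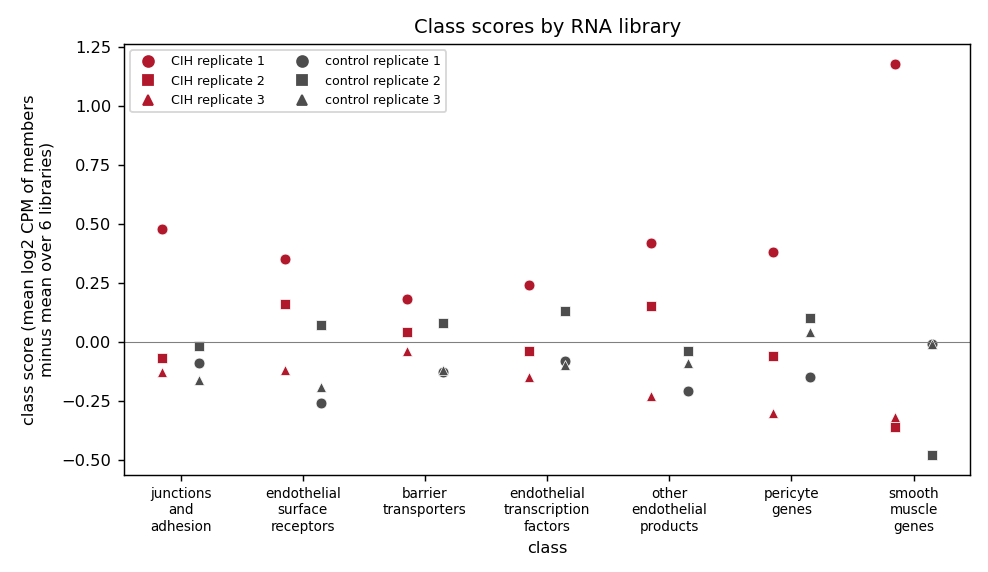
Class score (mean log2 CPM of a class's genes minus their mean over the 6 RNA libraries) for the 7 classes, CIH in red left of control in grey, with the marker shape giving the replicate number. The red circle, CIH replicate 1, is the highest point of every class, at 1.18 for smooth muscle and 0.18 for the transporters.

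Junction and adhesion genes had a median log2 fold change of 0.12, or -0.11 without CIH replicate 1, and all 5 were highest in that library. Pecam1 (gene ID 29583), an adhesion molecule of endothelial contacts, had 13.8, 8.87 and 8.14 CPM in CIH, against 6.56, 7.38 and 7.51 CPM in control. All 3 CIH libraries stood above all 3 controls, with replicate 1 well above the rest, and the log2 fold change was 0.52 (SE 0.23), or 0.25 (SE 0.16) without that library. Cldn5, the main claudin of the barrier's tight junctions, had 44.8, 38.6 and 35.2 CPM in CIH, against 27.0, 36.7 and 34.0 CPM in control. Its groups overlapped, and control replicate 1 was the lowest library (0.28, SE 0.15, or 0.18, SE 0.16). Esam, an endothelial cell adhesion molecule, had 13.4, 10.9 and 8.75 CPM in CIH, against 9.89, 10.5 and 11.3 CPM in control. CIH libraries held both the highest and the lowest Esam value (0.06, SE 0.18, or -0.11, SE 0.16). Cdh5, the VE-cadherin of adherens junctions, gave 0.05 (SE 0.26), or -0.26 (SE 0.19) without CIH replicate 1. For Ocln, which encodes the tight junction protein occludin, the values were 0.12 (SE 0.26), or -0.14 (SE 0.23).

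Among the surface receptors, Robo4 showed the largest fold change of all 36 members. Robo4 (gene ID 300518), a roundabout receptor that stabilises vessels, had 3.92, 3.98 and 3.14 CPM in CIH, against 0.994, 2.59 and 1.44 CPM in control. These rest on few reads, 70, 84 and 62 in CIH and 20, 52 and 31 in control. Each CIH library stood above each control, and CIH replicate 1 was not the highest. The means were 3.68 ± 0.473 CPM in CIH and 1.67 ± 0.826 CPM in control (SD, n = 3 each). On the log2 scale CIH over control was 1.13 (SE 0.37, unadjusted p = 0.0183 in edgeR). Without CIH replicate 1 it was 1.08 (SE 0.42), and leaving out any library in turn gave 0.87 to 1.59. Robo4 overlaps Robo3, an axon guidance receptor gene, by position in GRCr8. Robo3 had 14.5, 13.2 and 51.5 CPM in CIH, against 66.9, 6.39 and 3.29 CPM in control. Robo4 was lowest in control replicate 1, where Robo3 was highest. In CIH replicate 3, where Robo3 was next highest, Robo4 stood above every control, and both genes were low in control replicate 3. The part that shared reads may have in the Robo4 values was not tested.

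The other 6 receptors had smaller differences. Emcn, an endothelial sialomucin, had 5.61, 3.65 and 3.54 CPM in CIH, against 3.33, 3.34 and 2.50 CPM in control, with every CIH library above every control. In TPM the same gene had 8.83, 5.52 and 7.15 in CIH and 6.22, 5.79 and 3.65 in control, and the groups overlapped. The log2 fold change was 0.48 (SE 0.26), or 0.23 (SE 0.23) without CIH replicate 1. Ramp2, the partner of the adrenomedullin receptor, was the most abundant receptor per length at a mean of 62.8 TPM. It had 11.9, 20.8 and 12.9 CPM in CIH, against 14.5, 24.2 and 24.5 CPM in control, and it was lowest in CIH replicate 1, unlike most members (-0.47, SE 0.29, or -0.33, SE 0.31). Adgrf5, an adhesion G protein-coupled receptor, had 117, 63.3 and 79.0 CPM in CIH, against 66.6, 67.3 and 54.6 CPM in control. The groups overlapped at CIH replicate 2 (0.46, SE 0.23, or 0.17, SE 0.15). Tie1, an endothelial receptor tyrosine kinase, gave 0.23 (SE 0.19), or -0.01 (SE 0.13). Adgrl4, a second adhesion G protein-coupled receptor, gave 0.19 (SE 0.18), or 0.08 (SE 0.18), and Eng, the TGF-beta co-receptor endoglin, -0.10 (SE 0.21), or -0.22 (SE 0.23).

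Barrier transporters had a median log2 fold change of 0.13, or 0.05 without CIH replicate 1, with 3 members positive and 3 negative. Slco1a4, an organic anion transporter of brain capillaries, had 46.5, 32.4 and 38.6 CPM in CIH, against 29.9, 29.7 and 28.3 CPM in control. The 3 controls lay close together and every CIH library was above them, with means of 39.2 ± 7.06 CPM in CIH and 29.3 ± 0.858 CPM in control (SD, n = 3 each). The log2 fold change was 0.42 (SE 0.15, unadjusted p = 0.0249 in edgeR), or 0.27 (SE 0.12) without CIH replicate 1. Slc7a5, the large neutral amino acid transporter that carries L-DOPA across the barrier, had 88.1, 85.9 and 63.2 CPM in CIH, against 73.9, 82.9 and 80.9 CPM in control. CIH libraries were at both ends of its range (-0.0035, SE 0.15, or -0.09, SE 0.15). Slco1c1, a thyroxine transporter, had 58.1, 59.3 and 47.0 CPM in CIH, against 38.4, 48.3 and 49.3 CPM in control. Its groups overlapped through CIH replicate 3 (0.27, SE 0.15, or 0.22, SE 0.16). Mfsd2a, the carrier of lysolipid DHA that limits transcytosis, gave -0.16 (SE 0.23), or -0.13 (SE 0.27), and Abcg2, a drug efflux pump, -0.22 (SE 0.27), or -0.20 (SE 0.32).

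Abcb1a, the P-glycoprotein drug pump, has a near copy, Abcb1b, that can share its reads. Abcb1a had 69.1, 50.9 and 49.6 CPM in CIH, against 47.4, 46.6 and 37.2 CPM in control, all CIH libraries above all controls (0.37, SE 0.17, or 0.19, SE 0.14). Abcb1b had 1.23, 10.7 and 20.3 CPM in CIH, against 18.4, 10.4 and 16.7 CPM in control, from 22 reads in CIH replicate 1 and 208 to 402 in the other libraries. Abcb1b was lowest in the library where Abcb1a was highest. In CIH replicate 3, where Abcb1b was highest, Abcb1a was still above every control. The dentate granule score was also lowest in CIH replicate 1, at -1.55, -0.26 and 0.72 in CIH and 1.16, -0.25 and 0.19 in control. The part of shared reads or of dentate cells in the Abcb1b values was not tested. The summed pair had 70.3, 61.5 and 69.9 CPM in CIH, against 65.9, 57.0 and 53.9 CPM in control. Once summed, the groups overlapped, and the log2 fold change was 0.19 (SE 0.12). The sources used here do not say how reads were divided between the copies.

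**Figure D3:**
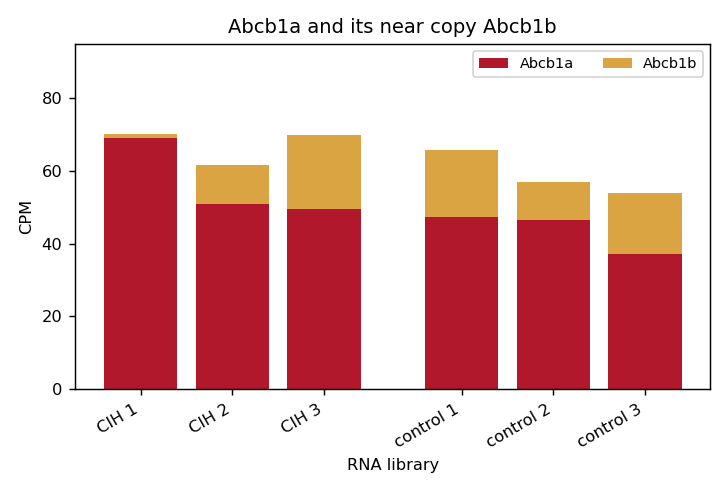
Stacked CPM of Abcb1a (red) and its near copy Abcb1b (ochre) in each RNA library, CIH left of control. The red bars of CIH stand above those of control, while the stacked totals, 61.5 to 70.3 CPM in CIH and 53.9 to 65.9 CPM in control, overlap.

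Of the 4 transcription factors, Erg and Foxq1 had groups that did not overlap, in opposite directions. Erg (gene ID 170909), an ETS factor that keeps endothelial genes on, had 12.9, 8.20 and 7.99 CPM in CIH, against 7.05, 6.14 and 5.61 CPM in control. Replicate 1 was far above the other 2 CIH libraries, which still exceeded all controls. Means were 9.71 ± 2.80 CPM in CIH and 6.27 ± 0.732 CPM in control (SD, n = 3 each). This corresponds to 0.63 on the log2 scale (SE 0.23, unadjusted p = 0.0300 in edgeR), or 0.37 (SE 0.17) without CIH replicate 1. Foxq1, a forkhead factor enriched in brain endothelium, had 3.98, 4.31 and 4.15 CPM in CIH, against 4.37, 6.68 and 7.05 CPM in control. The CIH libraries were close together and below every control, though control replicate 1 lay just above them. The log2 fold change was -0.54 (SE 0.22, unadjusted p = 0.0472 in edgeR), and -0.52 (SE 0.26) without CIH replicate 1. Sox18, a SOX factor of endothelium, had 9.02, 8.72 and 6.42 CPM in CIH, against 8.40, 9.28 and 8.53 CPM in control, with overlap (-0.12, SE 0.17, or -0.21, SE 0.19). Sox17, an arterial SOX factor, gave 0.17 (SE 0.24), or -0.02 (SE 0.24).

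Other endothelial products had a median log2 fold change of 0.14, or 0.0022 without CIH replicate 1. Vwf, the von Willebrand factor of clotting, had 228, 127 and 108 CPM in CIH, against 120, 161 and 83.8 CPM in control. It was highest in CIH replicate 1 and lowest in control replicate 3, with the remaining libraries mixed (0.34, SE 0.34, or -0.05, SE 0.27). Pdgfb, the ligand that recruits pericytes through PDGFRB, had 21.1, 33.2 and 20.4 CPM in CIH, against 17.7, 24.4 and 32.2 CPM in control. Its groups spanned much the same range (0.01, SE 0.27, or 0.11, SE 0.31). Nostrin, a regulator of nitric oxide synthase traffic, gave 0.75 (SE 0.39), or 0.36 (SE 0.34). Itm2a, an integral membrane protein gene, gave 0.14 (SE 0.21), or 0.0022 (SE 0.22), and Egfl7, the secreted protein whose gene carries miR-126, -0.06 (SE 0.23), or -0.18 (SE 0.26).

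Pericyte genes had a median log2 fold change of 0.06, or -0.19 without CIH replicate 1. Rgs5, a G protein regulator that marks brain pericytes, was the most abundant member per length, at a mean of 134 TPM. It had 81.3, 56.6 and 54.9 CPM in CIH, against 55.3, 49.0 and 51.0 CPM in control, and CIH replicate 3 fell among the controls (0.31, SE 0.17, or 0.10, SE 0.10). Notch3, the mural Notch receptor, had 60.1, 55.6 and 38.6 CPM in CIH, against 40.1, 74.3 and 72.4 CPM in control. CIH replicate 3 and control replicate 1 were the 2 low libraries (-0.28, SE 0.27, or -0.41, SE 0.30). Pdgfrb, the receptor for the endothelial ligand, gave 0.17 (SE 0.14), or 0.03 (SE 0.12). Vtn, the matrix protein vitronectin, gave 0.19 (SE 0.25), or -0.14 (SE 0.15). Anpep, the aminopeptidase CD13, had 5.72, 2.94 and 2.53 CPM in CIH, against 3.63, 3.94 and 3.99 CPM in control. Replicate 1 was above and the other 2 CIH libraries below every control, so the log2 fold change was -0.05 (SE 0.33) with all libraries and -0.50 (SE 0.21) without CIH replicate 1. Cspg4, the NG2 proteoglycan, is also made by oligodendrocyte precursors and gave -0.16 (SE 0.22), or -0.23 (SE 0.25). The precursor marker score was -0.29, 0.14 and 0.11 in CIH and 0.01, 0.05 and -0.02 in control, and its part in the Cspg4 values was not tested.

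The smooth muscle genes showed the widest gap between 1 library and the other 5. Acta2, smooth muscle actin, had 21.1, 7.35 and 6.02 CPM in CIH, against 7.90, 6.48 and 10.6 CPM in control. Tagln, the actin-binding protein transgelin, had 25.6, 7.63 and 8.40 CPM in CIH, against 11.4, 7.43 and 9.46 CPM in control. Myl9, a regulatory myosin light chain, had 18.7, 7.06 and 8.55 CPM in CIH, against 9.39, 6.48 and 8.34 CPM in control. CIH replicates 2 and 3 lay within the control range of each gene, except that Acta2 in CIH replicate 3 was below every control. For all 3 genes CIH replicate 1 stood above every other library. Its ratio to the next highest library was 1.99 for Acta2, 2.25 for Tagln and 1.99 for Myl9, while Rgs5 had a ratio of 1.44 and Pdgfrb of 1.19. The class median was 0.50, or -0.24 without that library. With all libraries and without that one, Acta2 gave 0.46 (SE 0.49) and -0.32 (SE 0.25), Tagln 0.55 (SE 0.48) and -0.24 (SE 0.21), and Myl9 0.50 (SE 0.38) and -0.05 (SE 0.21).

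Vessels on the brain surface carry thick smooth muscle and run in the meninges, so meningeal markers are set beside these values. The meningeal and fibroblast score was 0.79, -1.32 and -0.19 in CIH, against 0.50, 0.12 and 0.11 in control, and 6 of 11 markers were highest in CIH replicate 1 (Slc47a1 was at 0 in 1 library). The smooth muscle and meningeal scores were both highest in that library, but the meningeal score was lowest in CIH replicate 2, where Acta2, Tagln and Myl9 lay within the control range. Red cell markers had scores of 0.69, 0.26 and -0.20 in CIH, against 0.18, -0.36 and -0.56 in control, and all 5 tested were highest in CIH replicate 1 (Slc4a1 and Ahsp were at 0 in some library). Their part in the smooth muscle values was not tested.

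The miRNAs of the same cells were read in separate libraries. miR-126a-3p, the endothelial miRNA, had 17176, 17438 and 17165 CPM in CIH, against 17688, 16154 and 15970 CPM in control. Its groups overlapped and the libraries differed little (log2 fold change 0.06, SE 0.10, or 0.05, SE 0.11). The other arm, miR-126a-5p, had 3737, 3062 and 3113 CPM in CIH, against 3670, 2224 and 2832 CPM in control (0.18, SE 0.24, or 0.08, SE 0.26). miR-143-3p had 4585, 1566 and 2469 CPM in CIH, against 1694, 1452 and 2116 CPM in control. miR-145-5p had 3926, 1657 and 1051 CPM in CIH, against 1964, 1988 and 1043 CPM in control. The small RNA library labelled CIH replicate 1 was thus highest for both smooth muscle miRNAs, 1.86 and 1.97 times the next library, as the RNA library of that label was for Acta2, Tagln and Myl9. For miR-143-3p the log2 fold change was 0.71 (SE 0.41), or 0.20 (SE 0.31) without CIH replicate 1, and for miR-145-5p it was 0.41 (SE 0.53), or -0.32 (SE 0.41).

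The minor arms were scarce. miR-145-3p had 7.14, 3.27 and 4.98 CPM in CIH, against 5.56, 5.37 and 4.54 CPM in control (-0.0047, SE 0.36, or -0.33, SE 0.38). miR-143-5p had 62, 2 and 2 reads in CIH, against 2, 2 and 1 in control, too few for the test, with all but a few reads in CIH replicate 1. Of the 5 miRNAs tested, 4 were highest in that library, against 18.7% of all 715 tested miRNAs. The 5 are arms of miR-126a, miR-143 and miR-145, so they are not 5 separate observations. Of the 4, miR-126a-5p was only 1.02 times the next library, and miR-145-3p was 1.29 times the next, from 36 reads. With edgeR, 0 of the 5 passed an adjusted p of 0.05, the same as the 0% of all 715, and their adjusted p ran from 0.969 to 0.996.

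**Figure D4:**
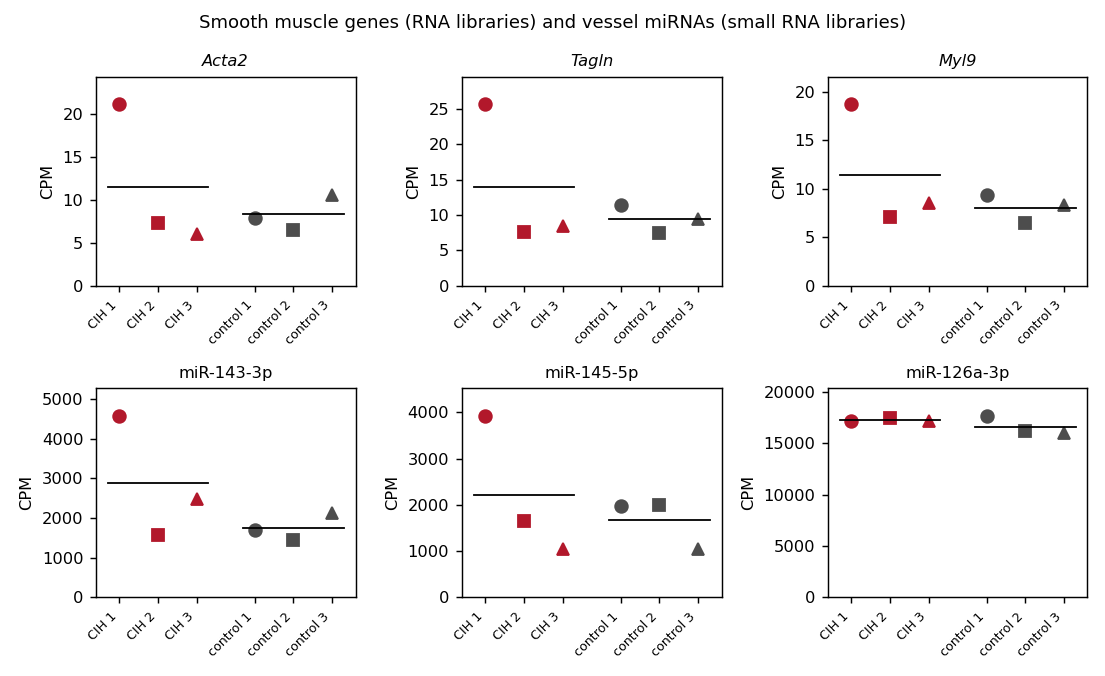
CPM of 3 smooth muscle genes in RNA libraries (top) and of 3 vessel miRNAs in small RNA libraries (bottom), CIH in red left of control in grey, with a line at each group's mean and axes that start at 0. CIH replicate 1 is far above the other points for Acta2, Tagln, Myl9, miR-143-3p and miR-145-5p, and level with them for miR-126a-3p.

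Across all members, 6 had every CIH library above every control (Pecam1, Emcn, Robo4, Slco1a4, Abcb1a and Erg), against 3.05% of all genes, and 1 had every CIH library below (Foxq1), against 2.65% of all genes. All 7 are endothelial genes, and none of the 9 mural members was among them. Such separation was not confined to endothelial genes. Outside the members, 3 of 20 further mural genes tested and 2 of 25 further endothelial genes tested also stood above every control in CPM. In TPM, 5 members were above every control (the 6 without Emcn), against 3.00% of all genes, and Foxq1 was the 1 below, against 3.07% of all genes. The Abcb1a separation was lost on summing with Abcb1b, though what part of the Abcb1b reads is shared was not tested. Leaving out CIH replicate 1 cannot remove a gene from these counts, so it is no check of them. Among the members, it added none above every control, where 7.21% of all genes then stood. It added Anpep below, where 7.10% of all genes then stood.

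**Figure D5:**
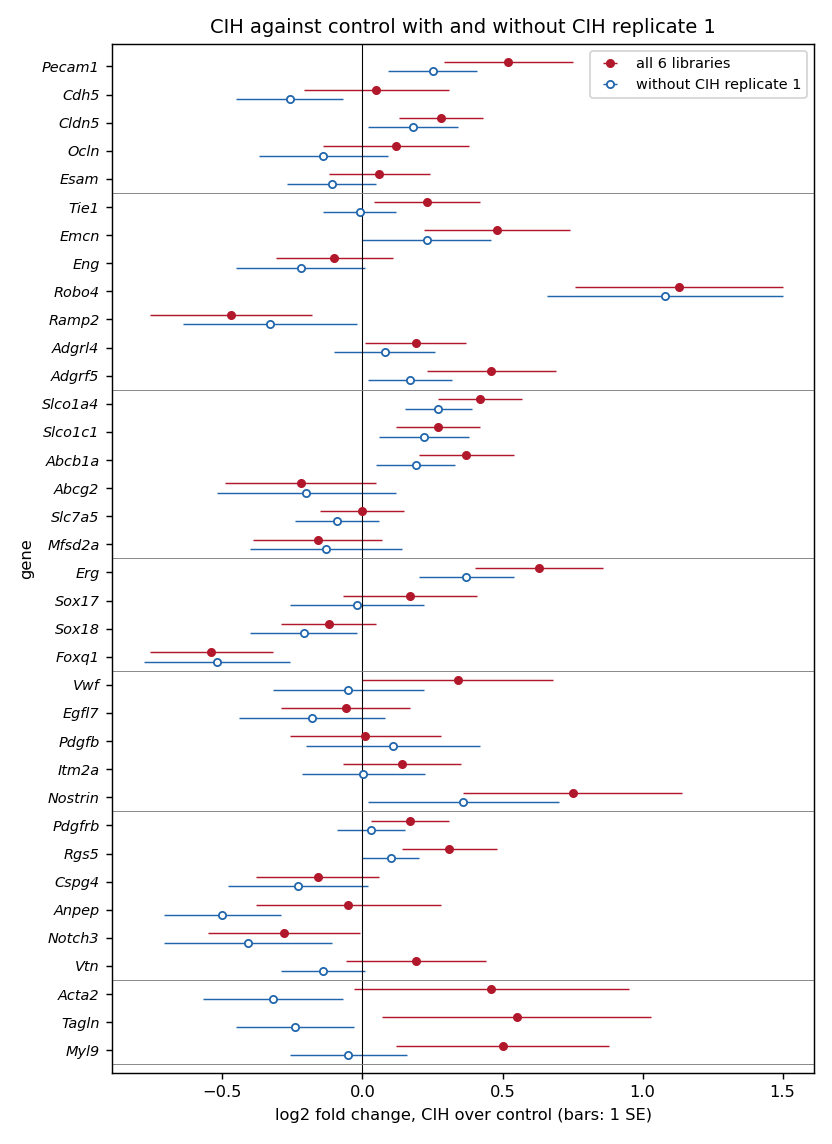
Log2 fold change, CIH over control, of each vessel gene with all 6 RNA libraries (filled red) and without CIH replicate 1 (open blue), with bars of 1 SE and lines between classes. Most blue points lie left of the red ones, and all 3 smooth muscle genes pass from right of 0 to left of it, while Robo4 and Foxq1 hardly move.

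A second pattern among the members, picked out after their values were seen, did not follow the groups. CIH replicate 3 and control replicate 1 were the 2 lowest libraries for 11 of 36 members, against 13.5% of all genes. These were Esam, Eng, Slco1c1, Slc7a5, Mfsd2a, Sox18, Egfl7, Pdgfb, Itm2a, Cspg4 and Notch3. Eng had 28.1, 28.4 and 16.7 CPM in CIH, against 24.0, 27.8 and 26.7 CPM in control. Mfsd2a had 21.2, 26.6 and 19.1 CPM in CIH, against 17.3, 28.2 and 29.1 CPM in control. Cspg4 had 84.5, 90.8 and 58.7 CPM in CIH, against 66.4, 102 and 93.3 CPM in control. Over all genes, CIH replicate 3 and control replicate 1 were also the most alike pair of RNA libraries. Their chi-square per degree of freedom, lower for more alike libraries, was 7.08, against 13.2 for control replicates 2 and 3, the next pair. The same 2 libraries had the highest oligodendrocyte scores, -0.09, 0.12 and 0.61 in CIH and 0.54, -0.61 and -0.56 in control, and the highest dentate granule scores, -1.55, -0.26 and 0.72 in CIH and 1.16, -0.25 and 0.19 in control. The part of these markers in the pattern was not tested.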

How the data were processed

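Rat hippocampal RNA (6 libraries) and small RNA (6 libraries) were grouped by title. Genome build Rnor_6.0 and the tools HISAT2 2.2.0, Bowtie2 2.2.5 and RSEM 1.2.12 appear in the submitters' processing notes without a stated role. Annotation and strand use: not given in the sources used here. Per the file headers, the RNA table holds estimated counts, TPM and FPKM. The deposited estimated counts, 16% of them not whole, were rounded for the tests. The authors' TPM values served for levels and an alternative test, and the deposited FPKM values were not used. The deposited small RNA table holds whole-number counts for 669 known and 834 predicted miRNA names. The authors' normalized small RNA score is each library's count over a constant (17.3 to 18.4) of unstated meaning, and served for an alternative test only. RNA totals were 17170943 to 21941173 and small RNA totals 4681163 to 4914232 per library.

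For each assay edgeR 4.0.16 in R 4.3.3 was fitted (TMM factors, filterByExpr, quasi-likelihood F test) over all features, and p-values were adjusted by Benjamini-Hochberg (threshold 0.05). The code was checked on simulated counts with set changes and a single dispersion. These held no outlying library such as CIH replicate 1, so they do not show how the test behaves in that case. Each SE is the size of the log2 fold change over the square root of F. Class scores used log2 CPM with a prior count of 2. Alternatives were RLE normalization, no low-count filter, DESeq2 1.42.0, limma 3.58.1 on log2(TPM or normalized score + 1 or 0.1), a replicate block, and omission of each library in turn. The sum with Abcb1b and the counts in TPM were chosen after seeing the data. Values in each library are printed for the 2 members of each class with the highest mean TPM and for members whose groups did not overlap. Those of Acta2 and Anpep, and of 3 genes under the second pattern, were chosen after their values were seen. In further gene lists the 2 members with the highest mean CPM and those with an unadjusted p under 0.05 are named. The members and lists were chosen with earlier results of these data known. The replicate numbers are not stated to pair the libraries, and the main fit did not pair them. All 36 members are in a RefSeq gene table of GRCr8, used for names and positions, and 12 of them overlap another gene there by position. Promoters were matched to 1 entry for 22 members, to more than 1 for 1 and to none for 13. One marker gene is not reported here. Plots used matplotlib 3.10.9 (Python 3.11.15).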

Additional observations from a re-analysis of the deposited data

How the results depend on the processing

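No vessel gene and no vessel miRNA was called under any alternative, and the lowest adjusted p was 0.765 for a member (Foxq1, without control replicate 1) and 0.666 for a miRNA (miR-143-3p, without CIH replicate 2). Over all genes edgeR called 0 of 17935 (164 genes higher and 155 lower in CIH had an unadjusted p under 0.05), DESeq2 called 10, limma called 1 with either pseudocount, and leaving out a library gave 0 to 1. Over all miRNAs edgeR called 0, no low-count filter, DESeq2 and both limma fits called 2 each, and leaving out a library gave 0 to 1. With the replicate number as a block, 0 genes and 0 miRNAs were called, and the class medians ran from -0.0011 for pericyte genes to 0.35 for smooth muscle genes. The deviations of same-numbered RNA libraries from their group means had correlations of -0.222, -0.0457 and -0.176. The labels do not state a pairing by number, and 3 such correlations cannot decide whether there was one.

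Leaving out CIH replicate 1 changed the direction of 10 of 36 members, CIH replicate 2 of 2, CIH replicate 3 of 6, and control replicates 1, 2 and 3 of 1, 3 and 4. RLE, no filter, DESeq2 and the block changed none. The smooth muscle median ran from -0.24 (without CIH replicate 1) to 0.76. Members below every control numbered 2 of 36 without CIH replicate 1, where 7.10% of all genes were. Members that changed direction had log2 fold changes of -0.26 to 0.25 (Cdh5), -0.14 to 0.27 (Ocln), -0.11 to 0.20 (Esam), -0.01 to 0.33 (Tie1), -0.23 to 0.11 (Eng), -0.09 to 0.13 (Slc7a5), -0.02 to 0.35 (Sox17), -0.21 to 0.02 (Sox18), -0.05 to 0.60 (Vwf), -0.20 to 0.13 (Egfl7), -0.26 to 0.24 (Pdgfb), -0.32 to 0.01 (Cspg4), -0.50 to 0.16 (Anpep), -0.14 to 0.37 (Vtn), -0.32 to 0.76 (Acta2), -0.24 to 0.84 (Tagln) and -0.05 to 0.75 (Myl9). Among miRNAs the ranges were -0.03 to 0.12 (miR-126a-3p), -0.32 to 0.76 (miR-145-5p) and -0.33 to 0.24 (miR-145-3p). With limma on TPM, Tie1 was at -0.15 (pseudocount 1) and -0.17 (pseudocount 0.1), and Cdh5 at -0.00047 (pseudocount 0.1). miR-126a-3p was at -0.01 with no filter and miR-145-3p at 0.004 with RLE. The cause was not tested. Robo4, at 20 to 84 reads per library, is limited by depth.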

Other observations

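Further vessel genes outside the 36 were also examined in 5 lists, and 0 members passed the adjusted threshold in edgeR. Of 25 further endothelial genes tested, 20 had a positive and 5 a negative log2 fold change, 17 were highest in CIH replicate 1, and the median was 0.09. Without that library 12 were positive and 13 negative, with a median of -0.03. The most abundant members of this list by CPM were the tight junction scaffold gene Tjp1, at 251, 261 and 301 CPM in CIH and 304, 204 and 230 CPM in control, and Bsg, at 235, 324 and 301 CPM in CIH and 292, 262 and 291 CPM in control. Both overlapped between groups. Flt1, a VEGF receptor gene, had 119, 109 and 95.6 CPM in CIH, against 88.6, 85.0 and 84.0 CPM in control, a log2 fold change of 0.33 (SE 0.11, unadjusted p = 0.0205 in edgeR), or 0.25 (SE 0.11) without CIH replicate 1. Every CIH library was above every control in CPM, but in TPM Flt1 had 161, 206 and 157 in CIH, against 199, 132 and 109 in control, and the groups overlapped. Further mural genes, 20 tested, split into 15 positive and 5 negative with a median of 0.17, or 10 positive and 10 negative with a median of -0.02 without CIH replicate 1. The smooth muscle myosin gene Myh11 had 62.0, 25.9 and 24.4 CPM in CIH, against 34.3, 27.3 and 31.9 CPM in control, the same single high library as Acta2. Tpm1, a tropomyosin gene also made outside muscle, had 117, 125 and 113 CPM in CIH, against 112, 117 and 114 CPM in control, with overlap.

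Arterial and venous genes, 14 tested, had 6 positive and 8 negative fold changes with a median of -0.03, or 2 positive and 12 negative with a median of -0.18 without CIH replicate 1. Slc38a5, an amino acid carrier gene, had 1.35, 0.853 and 0.708 CPM in CIH, against 1.49, 1.95 and 2.32 CPM in control, from few reads (24, 18 and 14 in CIH, 30, 39 and 50 in control). Every CIH library was below every control (-0.99, SE 0.34, unadjusted p = 0.0235 in edgeR), or -1.29 (SE 0.34) without CIH replicate 1. Tfrc, the transferrin receptor gene, had 97.2, 89.7 and 106 CPM in CIH, against 87.7, 68.4 and 69.5 CPM in control (0.38, SE 0.13, unadjusted p = 0.0262 in edgeR), or 0.38 (SE 0.15) without that library. Its groups did not overlap, and it is also made outside vessels. Spock2, a matrix proteoglycan gene and the most abundant of this list, had 867, 849 and 615 CPM in CIH, against 549, 927 and 925 CPM in control, lowest in CIH replicate 3 and control replicate 1. The 15 Wnt barrier programme genes split into 6 positive and 9 negative, with a median of -0.03, or 7 positive and 8 negative with a median of -0.01 without CIH replicate 1. Ctnnb1, the beta-catenin gene, gave -0.07 (SE 0.12) on the log2 scale, and Adgra2, a co-receptor for Wnt7 ligands, -0.13 (SE 0.12). Of the 10 leakage and activation genes tested, 5 were positive and 5 negative, with a median of 0.01, or 4 positive and 6 negative with a median of -0.05 without CIH replicate 1. The caveolar coat gene Cavin1 gave -0.20 (SE 0.25) on the log2 scale, and the leukocyte adhesion gene Vcam1 -0.0023 (SE 0.10). Plvap, which marks leaky endothelium and was chosen after its values were seen, had 2.47, 1.61 and 2.43 CPM in CIH, against 1.94, 3.09 and 1.71 CPM in control.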
